A study of Mus musculus with 15 samples.

Results

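The small ribosomal subunit, the 40S particle that holds the mRNA and reads its codons, was followed gene by gene in cells that carry a Mus spretus (Spret) and a C57BL/6J (B6) copy of each autosome. The set was fixed by name as 27 autosomal genes for cytosolic small subunit proteins, and 26 of them had a row in the deposited table of 44260 genes. Rps18 was not analysed here. All 26 passed the filter used for testing, a mean of at least 10 over the 6 allele columns, as did 15985 genes of the whole table. The rule names genes by function and uses no measured value, but the members were chosen with earlier results of these data known.

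The material was SpretB6 mouse lines, which combine the wild-derived Spret and the laboratory B6 genome, differentiated through epiblast stem cells into cerebral cortex organoids. The table is named for day 12, and it held 3 libraries titled C1, C2 and C3, here called libraries 1, 2 and 3. No treatment or engineered allele is given in the labels, and nothing there says whether these libraries came from separate cultures. The p-values therefore speak only for these 3 libraries, whose scatter may be partly technical. Each standard error (SE) and p-value of the limma test also draws on the scatter of other genes of like level. There were 12.3 prior against 2 residual degrees of freedom. The alleles of a library share their RNA, and the 12 induced pluripotent stem cell samples of the series were not analysed here.

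A value is an allele-specific read number per gene, normalised by the authors and rounded. The Spret columns summed to between 2088788 and 2639912 and the B6 columns to between 2413876 and 3027078. From how often each whole number was used, a read was worth an estimated 1.156, 1.276 and 0.672 units in libraries 1, 2 and 3. Libraries 1 and 2 left 27 and 43 of the low whole numbers unused. Library 3 left 0 unused, so its factor rests on uneven use of the numbers rather than on gaps. By this estimate library 3 was the deepest. The tissue label names epiblast stem cells, but all 10 listed forebrain and neuron markers were present. They had summed levels of 17618, 17896 and 16255 in libraries 1, 2 and 3. The X-linked Dcx gave the largest part, at 5520, 5700 and 6490 from B6. The 6 pluripotency markers summed to 73, 96 and 25, led by Pou5f1. Of 10 listed mesoderm, endoderm and blood markers, 9 were analysed here, and these summed to 110, 195 and 67.

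Each small subunit is built from 18S ribosomal RNA and a single copy of each of its proteins. The rRNA folds into a head and a body with a platform, and proteins of both lie along the path of the mRNA. Ribosomal protein mRNAs are among the most abundant in growing cells, and they begin with a tract of pyrimidines that lets nutrient signalling through mTOR adjust their translation. In humans, loss of a single copy of several of these genes causes Diamond-Blackfan anaemia.

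Start regions are printed for the members at both ends of the order of ratios, to show what they share and where they differ. They come from RefSeq (GRCm38.p6) and run 5′ to 3′ from 100 bases before to 30 bases after the RefSeq start on the gene's strand. Capitals mark the longest unbroken run of C and T between 20 bases before and 30 bases after that start. GENCODE places the starts of Rps19, Fau, Rps9 and Rps3a1 further upstream and that of Rps15 further downstream. The windows of Rps19 and Fau lie inside the genes as GENCODE draws them. Which bases count as upstream, and which run is nearest the start, depends on the annotation. The sequences are of the B6 reference genome, and Spret sequence was not used here. Rps14 and Rps27a are named only.
Fau, chr19:6057847-6057976, plus strand: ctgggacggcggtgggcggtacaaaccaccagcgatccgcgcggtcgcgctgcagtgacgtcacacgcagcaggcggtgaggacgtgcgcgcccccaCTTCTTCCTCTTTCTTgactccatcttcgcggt
Rps19, chr7:24884492-24884621, plus strand: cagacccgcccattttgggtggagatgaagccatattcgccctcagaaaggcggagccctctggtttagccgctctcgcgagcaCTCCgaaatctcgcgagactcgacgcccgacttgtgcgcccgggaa
Rps9, chr7:3703941-3704070, plus strand: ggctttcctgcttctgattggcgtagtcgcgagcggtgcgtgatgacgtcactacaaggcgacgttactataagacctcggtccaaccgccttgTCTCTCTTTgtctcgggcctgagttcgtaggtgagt
Rps3a1, chr3:86142639-86142768, minus strand: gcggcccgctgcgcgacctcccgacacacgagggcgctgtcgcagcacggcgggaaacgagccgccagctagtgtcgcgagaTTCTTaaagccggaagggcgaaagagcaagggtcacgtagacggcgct
Rps15, chr10:80292331-80292460, plus strand: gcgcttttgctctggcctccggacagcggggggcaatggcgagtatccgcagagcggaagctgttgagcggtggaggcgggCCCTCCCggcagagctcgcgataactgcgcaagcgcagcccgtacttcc

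The pyrimidine run was 16 bases in Fau, where it spans the RefSeq start, 9 in Rps9, 7 in Rps15, 5 in Rps3a1 and 4 in Rps19. A RefSeq promoter was found for 22 of the 26 members, and 11 of these had a run of at least 8, against 21.5% of all 27025 genes in the same table. The letters CCGGAAG, the core bound by ETS family factors, were found on either strand in 300 bases in 9 of the 22, against 9.93% of all genes. AAGATGG, the core bound by YY1, was found in 6, against 7.28%, and TATAAA in 2, against 15.7%. GGGCGG, bound by Sp1, was found in 12, against 38.2%. Members and all genes alike were counted once if any of their starts held the letters, and these matches describe the reference sequence only. The longest runs of the printed set stand in Fau, which leaned to Spret, and in Rps9, which leaned to B6.

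Of the 26 members, 15 differed between alleles by limma at an adjusted p below 0.05, 10 higher from Spret and 5 higher from B6. Over all 15456 autosomal tested genes, 28.4% were called, 7.78% toward Spret and 20.7% toward B6. Differences ran from Fau, read 4.03-fold higher from Spret, to Rps15, read 2.92-fold higher from B6, within the same subunit and the same cells. Autosomal genes as a whole leaned to B6, with a median log2 ratio of Spret to B6 of -0.13. When each library's ratios were centred on that median, the members' split was 10 toward Spret and 3 toward B6, with Rps23 and Rps26 no longer called. Over autosomal genes the shares were then 13.3% higher from Spret and 13.5% higher from B6.

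Members stand at higher values than most tested genes. Among autosomal genes whose mean value reached 100, 39.7% were called, 11.1% higher from Spret and 28.6% higher from B6. Of the 24 members at that level, 15 were called, the same 10 and 5. The median log2 ratio of the 26 was 0.08, with quartiles of -0.12 and 0.56. The sign was the same in 3 of 3 libraries for 18 of 26 members, against 54.0% of autosomal tested genes. In 7 members all 3 Spret values lay above all 3 B6 values, against 6.96% of autosomal tested genes, and in 3 all lay below, against 16.8%. Fau, Rps14 and Rps15 were called and at least 2-fold apart, 3 of 26, against 7.35% of those genes. Ratios of the members in pairs of libraries correlated at r = 0.92, 0.93 and 0.94 across the 26 genes, which are not independent replicates. The count of 15 rests on comparing alleles within a library: with no replicate block it was 6. With no filter on low values it was 8.

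**Figure D1:**
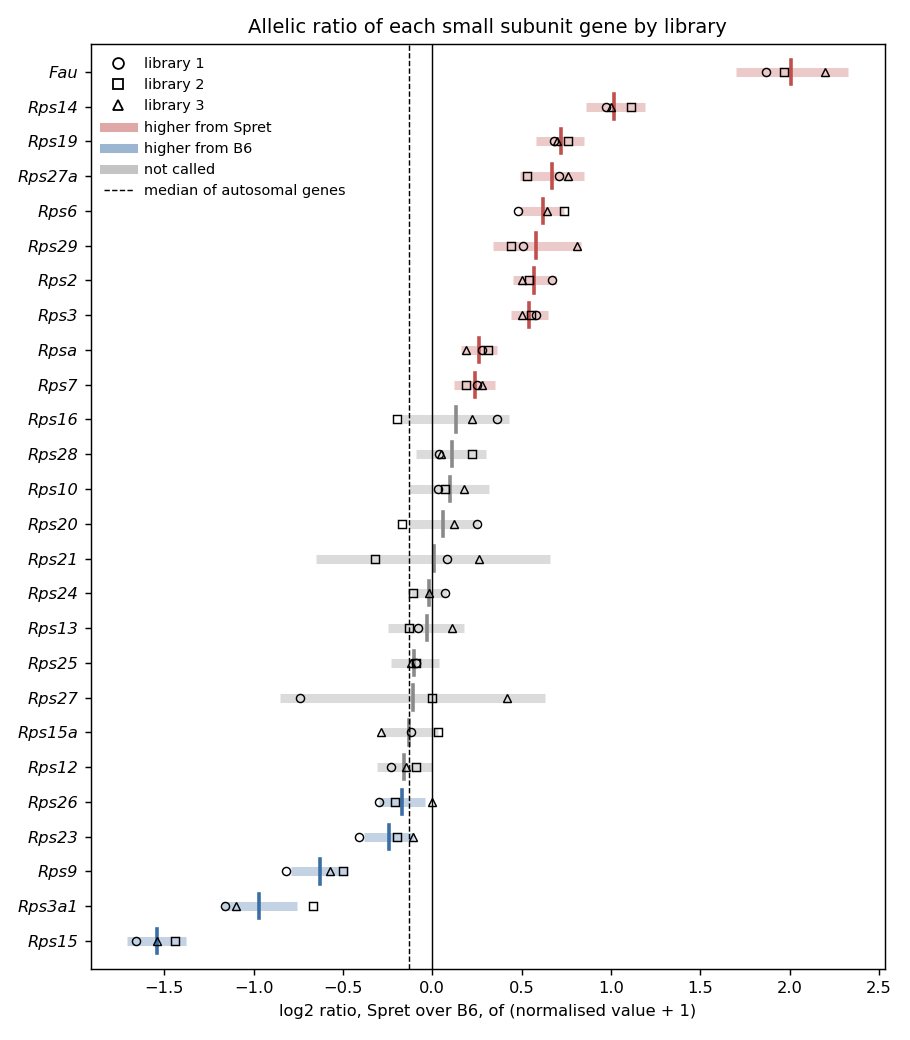
Log2 ratio of Spret over B6, of normalised value + 1, for each of 26 small subunit genes, ordered by ratio. Open symbols are the 3 libraries, vertical ticks the limma estimate, bands its 95% confidence interval and the dashed line the autosomal median of -0.13. The libraries of Fau, Rps14 and Rps15 lie close together and far from 0, while those of Rps27 and Rps21, the lowest genes, spread across it.

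Among genes of the body and platform, Fau on chromosome 19 (6057844 to 6059524, mm10) leaned most to Spret. It encodes a fusion of a ubiquitin-like peptide with eS30, a body protein at the mRNA entry, which are cut apart after translation. Fau read 175, 163 and 187 from Spret in libraries 1, 2 and 3, against 47, 41 and 40 from B6. Every Spret value was more than 3 times every B6 value. The log2 ratio was 2.01 ± 0.15 (SE, n = 3 libraries, limma adjusted p = 4.95e-08), and 80.4% ± 1.82 of the Fau values came from Spret (SD, n = 3). The B6 values stand for an estimated 32 to 60 reads, the fewest behind any called member.

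Rps14 on chromosome 18 (60747098 to 60778546) encodes uS11 of the platform, and its human counterpart lies in the region lost in the 5q- syndrome. It read 511, 393 and 566 from Spret, against 261, 182 and 283 from B6. The groups do not overlap. The log2 ratio was 1.02 ± 0.08 (SE, limma adjusted p = 7.12e-08), a Spret share of 67.1% ± 1.13 (SD, n = 3). Ndst1 overlaps this gene on the opposite strand, without shared exons, and it read 198, 182 and 244 from Spret, against 272, 228 and 253 from B6. Its log2 ratio had the other sign, at -0.28 (limma adjusted p = 0.0491), and was not called with centred ratios (0.274), without library 1 (0.329) or without library 2 (0.143). Elsewhere, opposite-strand genes share exons with Rps2, Rps10, Rps25, Rps27a and Rps28, and whether they bear on the values was not tested.

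Rps6, whose protein is the classical substrate of the S6 kinases, read 1203, 1046 and 1327 from Spret, against 861, 628 and 853 from B6. Rps2, a protein of the mRNA entry, read 1158, 932 and 1378 from Spret, against 729, 639 and 976 from B6. The alleles of Rps6 do not overlap across libraries, whereas for Rps2 they separate only within each library, because library 3 was high and library 2 low from both alleles. The log2 ratios were 0.62 ± 0.06 for Rps6 (SE, limma adjusted p = 9.51e-07) and 0.57 ± 0.06 for Rps2 (SE, adjusted p = 1.28e-06). Both genes thus gave about 60% of their values from Spret, 60.5% ± 2.12 and 59.7% ± 1.46 (SD, n = 3). Rps2 lies on chromosome 17 (24718116 to 24721929) and Rps6 on chromosome 4 (86854660 to 86857412).

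Smaller leans to Spret were seen in Rpsa and Rps7. Rpsa, also known as the laminin receptor, sits between the head and the body and read 1780, 1520 and 1537 from Spret, against 1463, 1230 and 1348 from B6. Its log2 ratio was 0.26 ± 0.05 (SE, limma adjusted p = 0.00066), a 1.2-fold difference seen in 3 of 3 libraries. Rps7, which also binds Mdm2, read 1121, 821 and 1201 from Spret, against 945, 722 and 992 from B6. Its log2 ratio was 0.24 ± 0.05 (SE, adjusted p = 0.00332), again above 0 in 3 of 3 libraries. Without limma's intensity trend these calls ended, at adjusted p = 0.178 and 0.203, and likewise with no filter on low values, at 0.0675 and 0.0731.

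The body and platform also held most of the members that leaned to B6. Rps3a1 on chromosome 3 (86137940 to 86142702) encodes eS1, a platform protein beside the mRNA exit. It read 237, 212 and 210 from Spret, against 529, 337 and 451 from B6. The highest Spret value lies well below the lowest B6 value. The log2 ratio was -0.97 ± 0.10 (SE, limma adjusted p = 1.94e-06), and 33.8% ± 4.21 of the values came from Spret (SD, n = 3). Library 2 showed the smallest difference, at -0.67, against -1.16 and -1.10 in libraries 1 and 3.

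Rps9 on chromosome 7 (3703993 to 3706897) encodes uS4, a body protein tied to decoding accuracy. It read 372, 348 and 386 from Spret, against 659, 491 and 574 from B6. The Spret values were nearly level across libraries while the B6 values varied, and the groups do not overlap. The log2 ratio was -0.63 ± 0.08 (SE, limma adjusted p = 1.66e-05). Calls of Rps9 and Rps3a1 ended when no low genes were left out, at adjusted p = 0.0633 and 0.059.

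Rps23, which reaches into the decoding centre, and Rps26, which contacts mRNA upstream of the start codon, leaned to B6 by little. Rps23 read 691, 568 and 836 from Spret, against 919, 651 and 902 from B6, and its log2 ratio was -0.24 ± 0.07 (SE, limma adjusted p = 0.0123). Rps26 read 882, 726 and 1089 from Spret, against 1088, 842 and 1088 from B6, a log2 ratio of -0.17 ± 0.06 (SE, adjusted p = 0.0482). In library 3 the Rps26 alleles were equal. Relative to the autosomal median the ratios were -0.12 and -0.05 and neither was called, at adjusted p = 0.202 and 0.598. Without library 1 both calls ended, at 0.181 and 0.365, which leaves 3 members higher from B6. Without library 2 that of Rps26 ended, at 0.178. Both also ended with no filter on low values, at 0.213 and 0.346, and without the intensity trend, at 0.245 and 0.375. With no replicate block they ended at 0.532 and 0.658. With a pseudocount of 0.5 the call of Rps26 ended, at 0.0555.

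**Figure D2:**
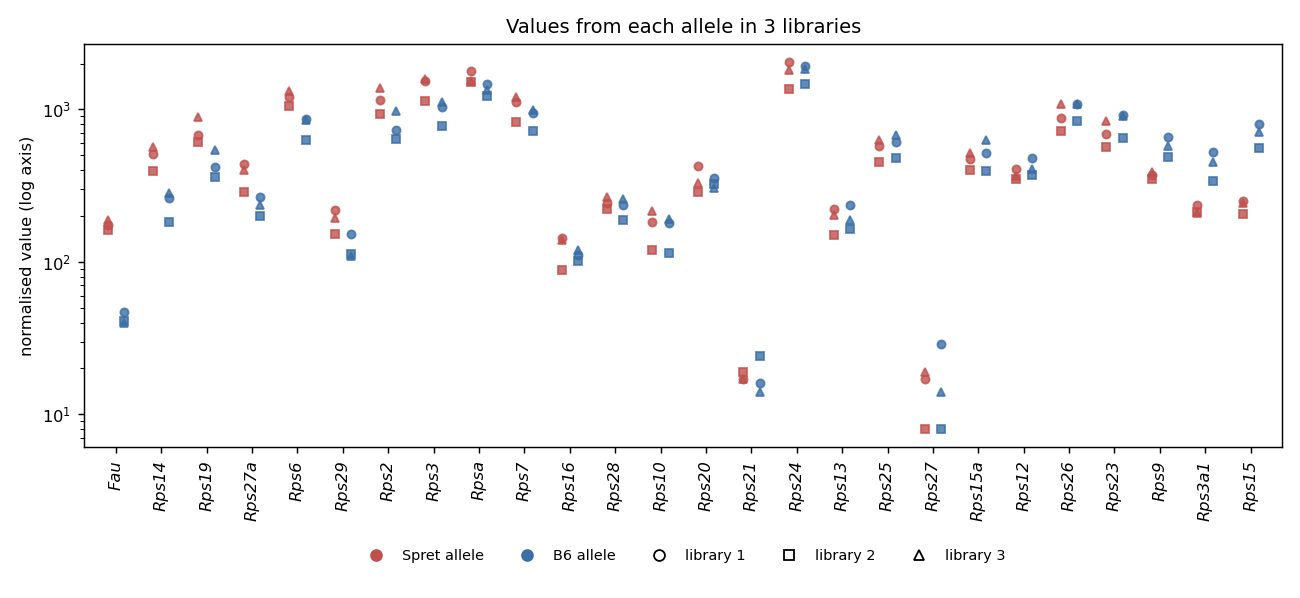
Normalised values on a log axis for each of 26 small subunit genes in the 3 libraries, Spret allele left (red) and B6 allele right (blue), in the order of their ratio. Values run from 8 for Rps27 to 2038 for Rps24, and the alleles separate at both ends of the order but not in its middle.

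Among genes of the head, Rps15 on chromosome 10 (80292453 to 80294114) leaned most to B6 of all members. It encodes uS19, which is needed for export of the small subunit precursor from the nucleus. It read 251, 205 and 245 from Spret, against 797, 556 and 712 from B6. Every B6 value exceeded every Spret value at least 2-fold. The log2 ratio was -1.54 ± 0.08 (SE, limma adjusted p = 3.59e-10), and 25.5% ± 1.5 of the values came from Spret (SD, n = 3). A processed copy with 97.7% identity over the matched sequence, Rps15-ps2, read 17, 10 and 17 from Spret, against 0, 0 and 1 from B6. Whether copies bear on the ratio of Rps15 was not tested.

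Rps19 on chromosome 7 (24884371 to 24889806), the gene most often mutated in human Diamond-Blackfan anaemia, leaned to Spret. It read 675, 613 and 888 from Spret, against 421, 361 and 545 from B6. The groups do not overlap, and the ratio hardly varied between libraries, at 0.68, 0.76 and 0.70. The log2 ratio was 0.72 ± 0.06 (SE, limma adjusted p = 4.3e-07).

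Rps27a on chromosome 11 (29545846 to 29548109) encodes ubiquitin fused to eS31, the other fusion protein of the subunit beside Fau. It read 437, 288 and 400 from Spret, against 266, 199 and 236 from B6, for a ratio of 0.67 ± 0.08 on the log2 scale (SE, limma adjusted p = 2.49e-05). Both fusion genes therefore leaned to Spret, Fau more than Rps27a. Rps3, which lines the mRNA entry, read 1543, 1132 and 1589 from Spret, against 1031, 773 and 1125 from B6, a log2 ratio of 0.54 ± 0.05 (SE, adjusted p = 5.78e-07). Rps29, a small zinc-binding head protein, read 218, 152 and 193 from Spret, against 153, 112 and 110 from B6. Its log2 ratio was 0.58 ± 0.12 (SE, adjusted p = 0.00147), and the lowest Spret value, in library 2, lies just below the highest B6 value, in library 1. The call of Rps29 ended without the intensity trend and with no filter on low values, at adjusted p = 0.0598 and 0.1.

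The remaining 11 members were not called, and their intervals show how large a difference could be hidden. Rps24, the member of highest level, read 2038, 1365 and 1810 from Spret, against 1935, 1476 and 1840 from B6. Its log2 ratio was -0.02, with a 95% interval from -0.12 to 0.08. Rps25, which some viral mRNAs need for initiation, had -0.10 with an interval from -0.23 to 0.04. Rps12, a head protein, had -0.16 with an interval from -0.31 to -0.00 and an adjusted p = 0.12 by limma. Rps10 and Rps20, head proteins that receive ubiquitin when ribosomes collide, had intervals from -0.13 to 0.32 and from -0.13 to 0.26. Rps28, at the mRNA exit, had an interval from -0.09 to 0.30, Rps13 from -0.25 to 0.18 and Rps15a from -0.29 to 0.03. For all of these named genes a difference as large as that of Rps9 lies outside the interval.

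Rps16, whose tail reaches the transfer RNA in the P site, was less certain, with 143, 88 and 140 from Spret, against 111, 101 and 120 from B6. Its library ratios were 0.36, -0.20 and 0.22. Rps27 read 17, 8 and 19 from Spret, against 29, 8 and 14 from B6, and Rps21 read 17, 19 and 17 from Spret, against 16, 24 and 14 from B6. Rps27 rests on an estimated 6 to 28 reads from Spret and 6 to 25 from B6, and its interval from -0.85 to 0.63 leaves a difference undetectable at this depth. The interval of Rps21, from -0.65 to 0.66, is nearly as wide.

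By place in the subunit, the test called 5 of the 11 head genes, 4 toward Spret and 1 toward B6, with a median log2 ratio of 0.11. Of the 15 body and platform genes 10 were called, 6 and 4, with a median of -0.02. Over all autosomal tested genes 28.4% were called, 7.78% toward Spret and 20.7% toward B6. Among those with a mean value of at least 100, 39.7% were called. With centred ratios the counts were 4 and 1 in the head and 6 and 2 in the body and platform. The shares over autosomal tested genes were then 13.3% and 13.5%. Both places held members called in each direction, and no difference between them was tested.

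Summed over the 26 genes, the Spret copies gave 15996, 12584 and 16548, against 14870, 11414 and 14884 from the B6 copies. The Spret share of the sum was 52.3% ± 0.428 (SD, n = 3), against 47.8% ± 0.110 over all autosomal tested genes. Single genes ranged from 25.5% for Rps15 to 80.4% for Fau. Members made up 0.684%, 0.602% and 0.627% of all Spret values in libraries 1, 2 and 3, against 0.550%, 0.473% and 0.492% of all B6 values. The B6 columns also hold the X-linked genes, which add to their totals. Head genes gave 52.5% ± 0.371 of their sum from Spret and body and platform genes 52.2% ± 0.557 (SD, n = 3 libraries each).

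**Figure D3:**
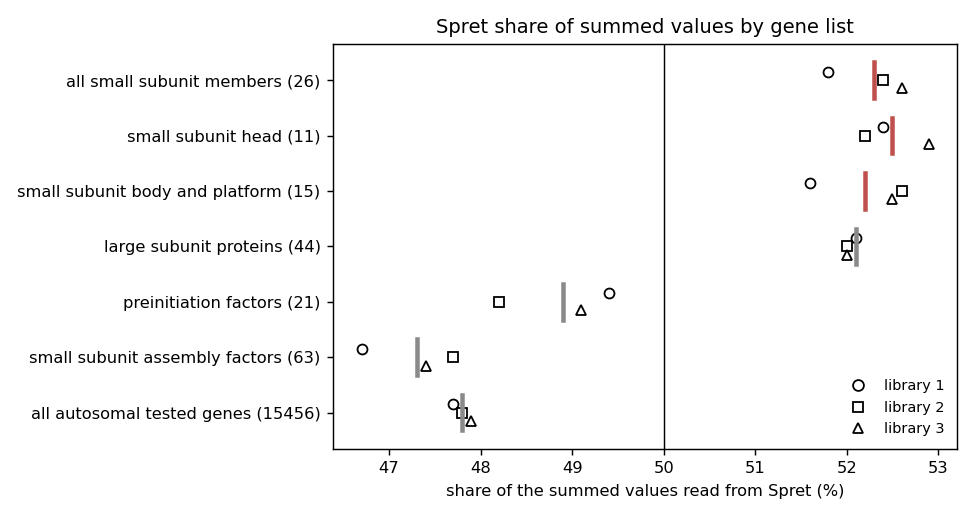
Share of summed values read from Spret, in percent, for each gene list, with the number of tested autosomal genes in brackets; open symbols are the 3 libraries, vertical ticks their mean and the line marks 50%. The small subunit members lie at 51.8% to 52.6%, beside the large subunit proteins, and the assembly factors and all autosomal genes below 50%. The axis does not start at 0.

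Levels also differed widely between members, and in bulk RNA fewer cells of a type and less RNA per cell cannot be told apart. Per kilobase of the longest annotated coding length and summed over both alleles, Rps24 and Rps26 stood highest at 8740 and 5520. Untranslated parts were left out of that length. Rps24 has a transcript of 1613 bases for 399 coding bases, and Rps26 one of 681 for 345. The order of members therefore depends on the length used. Rps27 and Rps21 stood lowest at 126 and 143, and Rps16 and Fau came next at 535 and 546. A cell needs the same number of each protein, but the table counts only allele-specific reads. The number of sequence differences a transcript carries also enters them and was not measured. Rps21 and Rps27 have short coding lengths, of 249 and 252 bases. Rps29 and Rps28, the shortest at 168 and 207 bases, stood at 1860 and 2270. Whether length bears on level was not tested.

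Reads of ribosomal protein genes can be split with near-identical processed copies. By blastn, all 26 members had at least 1 other annotated gene with at least 95% identity over at least 60% of the coding sequence, from 1 for Fau, Rps3, Rps9 and Rps21 to 22 for Rps12. Of 166 such copies counted over the members, 107 had a row in the table, and none of these reached a mean value of 10. Their summed mean value was 11.7 for Rps7, 10.3 for Rps23, 9.7 for Rps19 and 8.0 for Rps15, and less for every other member. Of 71 rows named as a copy of a member, none had a mean of at least 10 and the highest was 7.5. Rps23-ps1, identical to Rps23 over the matched sequence, read 0 from Spret in every library, against 9, 8 and 16 from B6. The treatment of reads that match several copies was not stated, so values of all members carry this uncertainty.

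Coding genes near the members with wide ratios were read for comparison. Over all autosomal tested genes, 7.78% were called toward Spret and 20.7% toward B6. Within 250 kb of Fau, 25 coding genes were tested, 0 called toward Spret and 3 toward B6, with a median log2 ratio of 0.00. The 24 around Rps15 had a median of 0.00 with 3 higher from Spret and 4 from B6, and the 2 around Rps3a1 a median of 0.04 with none called. Around Rps19 the median was 0.05 over 7 genes, around Rps9 it was -0.13 over 8, and around Rps14 it was -0.01 over 7. Near these members 0 genes were called toward Spret, and 2, 1 and 1 toward B6. Around Rps27a it was -0.32 over 5 genes, with 0 called toward Spret and 2 toward B6, while Rps27a itself leaned to Spret. Rps29 had a neighbour with a wide ratio of the same sign, Rpl36al, a large subunit protein gene at 2.25 (limma adjusted p = 4.89e-09), named here after its value was seen.

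**Figure D4:**
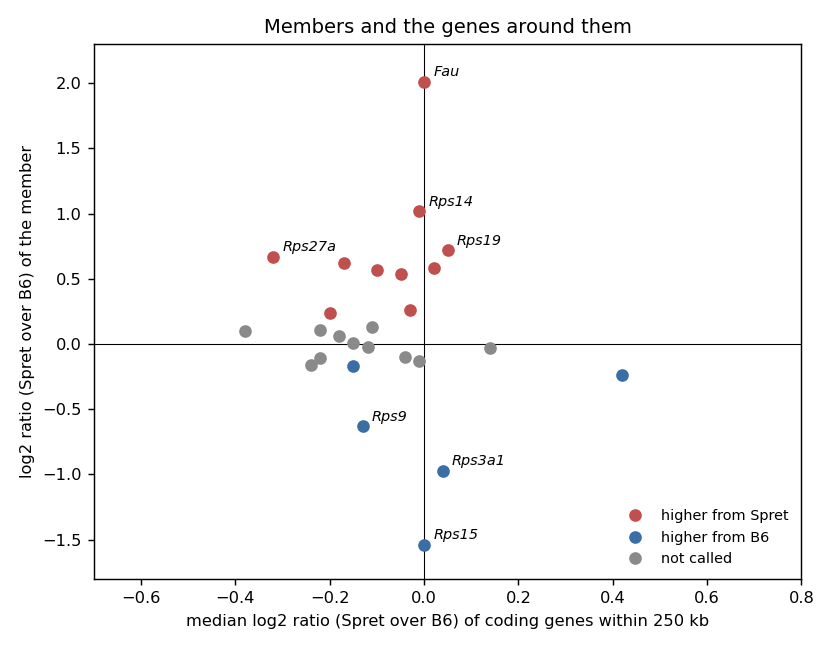
Log2 ratio of each of 26 members (vertical axis) against the median log2 ratio of tested coding genes within 250 kb (horizontal axis), both Spret over B6. Members range from -1.54 to 2.01 and the medians from -0.38 to 0.42, and a median over several genes varies less than a single gene whatever the genes do.

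Several members host small nucleolar RNAs, which guide modification of ribosomal RNA. The table held 14 such genes on the strand of 8 members, and 4 reached the level for testing. Gm23130 inside Rps12 read 54, 51 and 35 from Spret, against 38, 20 and 25 from B6. Its log2 ratio was 0.76 ± 0.25 (SE, limma adjusted p = 0.0321), while its host was not called. Without library 1, 2 or 3 the adjusted p was 0.101, 0.202 or 0.057, without the intensity trend 0.0952 and with no filter on low values 0.216. Snord15b inside Rps3 read 69, 31 and 134 from Spret, against 76, 26 and 107 from B6, a ratio of 0.14 with an adjusted p of 0.582 by limma. Its host leaned to Spret in 3 of 3 libraries. Snord15a in Rps3 and Gm26448 in Rpsa had ratios of -0.37 and -0.58 and were not called, at adjusted p = 0.361 and 0.151. Whether these differ from their hosts was not tested, and reads of a snoRNA and of its host's unspliced RNA cannot be told apart here.

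Some related genes of the table were read alongside. Rack1, a scaffold on the head that docks kinases, read 1003, 791 and 1258 from Spret, against 965, 699 and 1045 from B6. This gave a log2 ratio of 0.17 ± 0.06 (SE, n = 3 libraries, limma adjusted p = 0.0369). The call ended without library 1, 2 or 3, at adjusted p = 0.0524, 0.115 and 0.264, without the intensity trend, at 0.353, and with no filter on low values, at 0.226. Rps27l, a paralogue of Rps27, had -0.32 with an adjusted p of 0.114 by limma and was not called. The X-linked Rps4x was listed at 0 from Spret in every library, against 613, 480 and 783 from B6. X-linked genes were left out of the member set and of the autosomal background. The organoid libraries carry the same cross, so the strain an allele comes from and the parent it came from cannot be told apart in these ratios. The retrogene Rps27rt was listed at 0 from Spret, against 8, 8 and 10 from B6.

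Proteins that build and load the subunit were read from the same fit. Of 63 tested autosomal assembly factors, 2 were called toward Spret and 12 toward B6, with a median log2 ratio of -0.13, against 7.78% and 20.7% of autosomal tested genes with a median of -0.13. The GTPase-like factor Tsr1, which holds late small subunit precursors, read 125, 91 and 163 from Spret, against 364, 300 and 400 from B6. Its log2 ratio was -1.51 ± 0.10 (SE, limma adjusted p = 2.3e-08). Wdr43 and Utp6, of the early processome, had -0.25 and -0.30 (adjusted p = 0.039 and 0.028) and were no longer called with centred ratios, at 0.292 and 0.191. The call of Wdr43 also ended without library 1, 2 or 3, at 0.087, 0.121 and 0.192, and that of Utp6 without library 1 or 3, at 0.178 and 0.145. Both ended without the intensity trend, at 0.191 and 0.159, and with no filter on low values, at 0.146 and 0.152. With centred ratios the split of the list was 7 and 6, and 7 were called without library 1 and 6 without library 3, against 14.

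Of 21 preinitiation factors, which bind the subunit before it meets the mRNA, 4 were higher from Spret and 7 from B6, or 5 and 4 with centred ratios. Shares over all autosomal tested genes were 7.78% and 20.7%, or 13.3% and 13.5% with centred ratios. Eif3d, a cap-binding subunit of eIF3, had 0.36 ± 0.08 (SE, limma adjusted p = 0.00245). Eif2s2, the beta subunit of eIF2, had 0.23 ± 0.07 (adjusted p = 0.0215), and Eif3c, a core subunit, -0.18 ± 0.06 (adjusted p = 0.0394). Without library 1 only 6 of the list were called and without library 2 only 7, against 11. Calls of Eif2s2 and Eif3c ended without library 1, at 0.178 and 0.201, and without library 2, at 0.096 and 0.143. That of Eif3d ended without library 3, at 0.0518, and that of Eif3c at 0.0589 and, with centred ratios, at 0.54. All 3 ended without the intensity trend and with no filter on low values.

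Large subunit proteins were read in the same way. Of 44 tested autosomal genes, 17 leaned to Spret and 9 to B6 by the test, with a median log2 ratio of 0.09. With centred ratios these counts were 23 and 7. Shares over all autosomal tested genes were 7.78% and 20.7%, or 13.3% and 13.5% with centred ratios. The summed Spret share of the large subunit genes was 52.1% ± 0.0654 (SD, n = 3), beside 52.3% for the small subunit. Of those with the highest values, Rpl23 had a log2 ratio of 0.77 (limma adjusted p = 4.9e-09), Rpl12 one of 0.46 (2.59e-06) and Rpl4 one of -0.69 (1.76e-07). No difference between the subunits was tested. The lean of ribosomal protein genes to Spret was known before these lists were read, and it is given as a description.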

How the data were processed

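RNA of 3 SpretB6 organoid libraries was measured after ribosomal RNA depletion, per the labels' protocols, on genome build mm10, per the submitters' processing notes. The deposited values are a score: allele-specific read numbers per gene that the authors normalised and rounded to whole numbers, per the name of the deposited table. The aligner, allele assignment, counting tool and use of strand are not given in the sources used here. Reads per value were estimated by likelihood from how often each whole number was used, as factors of 1.156, 1.276 and 0.672 for libraries 1, 2 and 3. Since the third factor merges neighbouring read numbers, no test for read counts was used.

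The ratio of a gene is the Spret minus the B6 value, each as log2(value + 1), a scale that understates differences of low genes. Ratios were tested with limma 3.58.1 in R 4.3.3 over 15985 genes with a mean of at least 10, fitting terms for allele and for library, with an intensity trend, two-sided, with Benjamini-Hochberg adjustment over these genes. There were 2 residual and 12.3 prior degrees of freedom. The library term pairs the alleles because they share the RNA; deviations of the alleles from their means correlated at 0.21, 0.43 and 0.55 over 15456 autosomal genes. Positions come from GENCODE M21 and RefSeq (both GRCm38), with 741 genes left without one, and copies were searched with blastn 2.17.0. All members were named, with the 3 called genes of highest summed value in other lists and tested snoRNA genes inside members. Members and lists were chosen with earlier results of these data known. Alternatives were other pseudocounts, filters, scalings, no pairing, no trend and each library left out. Some other small subunit genes are not reported here.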

Additional observations from a re-analysis of the deposited data

How the results depend on the processing

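Fau, Rps14, Rps19 and Rps15 were called under all 11 alternatives, and no called member changed direction. Uncalled Rps13, Rps24, Rps25 and Rps27 changed sign with centred ratios. The 15 calls became 8 with no filter on low values (1 higher from B6) and 6 with no replicate block (3 higher from Spret and 3 from B6). Without the intensity trend 3 members were higher from B6, as with centred ratios and with Spret scaled to the autosomal B6 total. Those scalings moved the members' median log2 ratio to 0.2 and 0.21. Leaving out each library in turn gave 13 to 15 called members, 3 to 5 of them higher from B6. Over all tested genes, 4852 calls became 1236 with no filter, 1537 with no replicate block and 2229 without the trend, and 2667 to 4001 with a library left out. With no filter, 1 assembly factor, 1 preinitiation factor and 16 large subunit genes were called. With no replicate block, 0 other small subunit genes (Rack1 lost its call), 4 assembly factors, 2 preinitiation factors and 12 large subunit genes were called, and without the trend 0, 5, 2 and 14. Leaving out a library gave 0 other small subunit genes in each case, 6 to 13 assembly factors and 6 to 9 preinitiation factors. The causes of these shifts were not tested. Depth limits Rps27 and Rps21.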
